A study of Mus musculus with 9 samples.

Results

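The genes described are the molecular chaperones of the heat-shock and DNAJ families, taken as every protein-coding gene of the GENCODE M21 mouse annotation whose symbol begins with Hspa, Hspb, Hspd, Hspe, Hsph or Hsp90 or with Dnaja, Dnajb or Dnajc and a number. The rule found 72 of 55450 annotated genes, and 68 of the 72 passed the filter on low counts that left 20892 genes for testing. Their RNA was measured by bulk sequencing of manually dissected substantia nigra, the midbrain region that holds dopaminergic neurons, in 9 libraries of 3 groups. The 3 libraries labelled CTR are described by the methods as tissue of CX3CR1-CreERT2 mice that received a Cre-inducible vector for destabilized GFP, while the sample label reads GFP. The 3 libraries labelled CX3 (3xCX3-Cre) came from CX3CR1-CreERT2 mice that received a Synuclein-expressing vector, and the 3 labelled DAT (3xDAT-Cre) from DAT-Cre mice that received the same vector. The meaning of "3x" is not given in the sources used here. In the methods, all animals were male adults with lentivirus injected into the nigra on both sides, and an inverted cassette was turned on by Cre. The CX3CR1 promoter drives Cre in microglia and other cells of the myeloid lineage, and the DAT promoter in dopaminergic neurons. Tamoxifen is described for the CX3CR1-CreERT2 mice alone, so CTR and CX3 share driver line and tamoxifen, and DAT differs from CTR in driver, tamoxifen and vector together. The number of animals behind a library is not given, and p-values measure only the spread between these libraries, which may be technical. The human transgene is not part of the mouse annotation, so its RNA was not measured here.

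Heat-shock proteins hold unfolded protein chains and release them for folding, transfer or breakdown. Hsp70 proteins do this in cycles of ATP hydrolysis that DNAJ proteins start and Hsp110 proteins end by exchanging the nucleotide, Hsp90 proteins act on nearly folded clients, and small heat-shock proteins hold unfolding proteins without ATP. Some of the genes are induced by heat shock factors when unfolded protein collects in the cytosol, and others by the unfolded protein response of the endoplasmic reticulum (ER), while many are expressed constitutively, above all in neurons. In neurons they also uncoat clathrin vesicles and act at synaptic vesicles.

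Reads counted on genes ranged from 21592817 to 39475428 per library, and the level that 3 counts give ranged from 0.0779 to 0.151 CPM (counts scaled to the normalized library size, as edgeR gives them). This floor covers counting error only. The groups differed in markers of many cell types. Summed markers of microglia were 1207 to 1227 CPM in CTR, 807 to 832 in CX3 and 620 to 671 in DAT, with 7 of 8 markers lower in CX3 than in CTR and 8 of 8 lower in DAT. Summed T cell markers were 61.4 to 63.7, 51.9 to 53.6 and 15.8 to 18.9 CPM in the same order, with 3 and 7 of 7 lower, and those of the B lineage 301 to 320, 72.0 to 76.6 and 10.1 to 13.2 CPM, with 5 of 5 lower in both. Summed astrocyte markers were 5992 to 6006, 3726 to 3956 and 3919 to 4137 CPM, with 6 and 4 of 7 lower. The libraries labelled CTR, which carry the control vector, thus held the highest summed levels of all 4 lists. Summed markers of dopaminergic neurons, which were detected in every library, were 862 to 870, 1046 to 1066 and 676 to 690 CPM. Of these 8 markers, 6 were higher and none lower in CX3 than in CTR, and 2 were higher and 4 lower in DAT. Aldh1a1 alone had a mean of 441 CPM in CTR and 317 in DAT. Summed markers of neurons in general were 4457 to 4495, 4557 to 4693 and 6742 to 6836 CPM. Of these, 7 of 8 were higher in DAT than in CTR, and 4 were higher and 2 lower in CX3. Marker sums of choroid plexus (33.5 to 36.2, 1462 to 1572 and 862 to 1032 CPM) and of pituitary (57.7 to 60.2, 3.05 to 3.12 and 15.2 to 21 CPM) differed as well, as did those of oligodendrocytes (20179 to 20259, 21399 to 21788 and 14592 to 15524 CPM), erythroid cells (242 to 267, 94.5 to 108 and 187 to 266 CPM), mural cells (202 to 206, 252 to 269 and 189 to 192 CPM) and the cerebellar granule lineage (1.15 to 1.48, 2.19 to 2.53 and 12.9 to 17.4 CPM), and Prl, Cga and Pou1f1 were at 0 in at least 1 library. A sum can run against most of its list. Of 4 mural markers tested, 3 were higher and 1 lower in DAT than in CTR (median log2 fold change 0.82), although their sum was lower. Of 6 oligodendrocyte markers, 2 were higher and 3 lower in DAT than in CTR. The part of these marker differences in the results that follow was not tested, and in bulk tissue fewer cells of a type and less RNA per cell cannot be told apart. All directions given here follow the labels. Libraries CX3 A and DAT B stood apart from the others of their groups, with squared differences in counts up to 6.70 and 15.4 times those of random sampling, against 1.46 to 1.81 times within CTR.

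Stretches of promoter with a stress-response motif are shown for the genes that hold one. A RefSeq promoter on GRCm38.p6 was at hand for 58 of the 72 genes, and the 250 bases before each start were searched on both strands for the ER stress element (CCAAT, any 9 bases, CCACG) and for a heat shock element (at least 3 units of GAA and TTC in alternation with any 2 bases between units). The motifs do not overlap each other in these promoters. The ER stress element was found in 0.13% of the promoters of all 27025 genes and in 3 of the 58 promoters here, those of Hspa5, Dnajc3 and Hsp90b1. The other 6 ER chaperone genes with a promoter at hand (Dnajb9, Dnajb11, Dnajb12, Dnajb14, Dnajc1 and Dnajc10) had no match. The heat shock element was found in 0.514% of all promoters and in 3 of the 58, those of Dnajb6, Hspd1 and Hspe1. The stress-inducible genes Hspa1a, Hspa1b, Hspb1, Hsph1, Dnajb1, Dnaja1 and Hspa4l had a promoter at hand and no match. Hsp90aa1 had no promoter at hand. Only exact units in these 250 bases count as a match, so a gene without one can still hold an imperfect or more distant element. The motif is in capitals in each line, and each line runs 5′ to 3′ on the strand of its gene.
Hspa5 (chr2:34772020-34772048, plus strand): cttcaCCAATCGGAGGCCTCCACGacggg
Dnajc3 (chr14:118937822-118937850, plus strand): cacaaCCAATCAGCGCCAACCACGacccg
Hsp90b1, first copy (chr10:86705633-86705661, minus strand): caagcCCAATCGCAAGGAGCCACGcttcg
Hsp90b1, second copy, on the opposite strand (chr10:86705528-86705556, minus strand): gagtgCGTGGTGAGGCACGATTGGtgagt
Hspe1 (chr1:55088054-55088081, plus strand): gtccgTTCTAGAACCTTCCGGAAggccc
Hspd1 (chr1:55088054-55088081, minus strand): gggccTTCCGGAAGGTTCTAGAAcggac
Dnajb6 (chr5:29735847-29735869, plus strand): tccgaGAATCTTCCGGAAcgcta
Hspe1 and Hspd1 lie head to head on chromosome 1, and their 2 lines are the same stretch read on opposite strands. A match describes the letters of the window and not a bound site.

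The 72 genes together made up 1.22% to 1.24% of the normalized library size in CTR, 0.963% to 0.987% in CX3 and 1.21% to 1.28% in DAT. Their summed level was 12303 ± 92.9 CPM in CTR, 9753 ± 120 CPM in CX3 and 12378 ± 372 CPM in DAT (mean ± SD, n = 3 libraries each). The 3 CX3 libraries, at 9633, 9874 and 9752 CPM, lay below all 6 others, while CTR (12204 to 12389 CPM) and DAT (12060 to 12788 CPM) overlapped. That overlap depends on the scaling, whose factors were 1.023 to 1.024 in CTR, 1.051 to 1.067 in CX3 and 0.9213 to 0.9271 in DAT. As plain shares of the counts on genes, every DAT library lay below every CTR library. The Hsp70 and Hsp110 genes summed to 4576 to 4684 CPM in CTR, 3137 to 3232 in CX3 and 4188 to 4277 in DAT, and the Hsp90 genes to 3769 to 3837, 2776 to 2896 and 3614 to 4249 CPM. The 28 DNAJC genes summed to 1919 to 1940 CPM in CTR and 1933 to 1999 in CX3, which overlapped, and to 2275 to 2342 CPM in DAT. By level per kilobase of exon in CTR, the order began with Hspa8 (564 CPM per kilobase), Hsp90ab1 (542), Hsp90aa1 (450), Hspa5 (147), Hsp90b1 (101), Hspd1 (88.3), Dnaja2 (70.5), Hspa9 (64.4), Hspe1 (59.7) and Hsph1 (51.1). Reads with several matches were not counted, and the windows of 76 bases that are unique make up 67.2% of Hspa8 and 57.4% of Hsp90aa1 but 99.5% of Hsp90ab1, so the order of these 3 is uncertain. In CTR, 24 of the 72 genes had a mean of at least 100 CPM, 29 had 10 to 100, 10 had 1 to 10 and 9 were under 1 CPM.

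**Figure D1:**
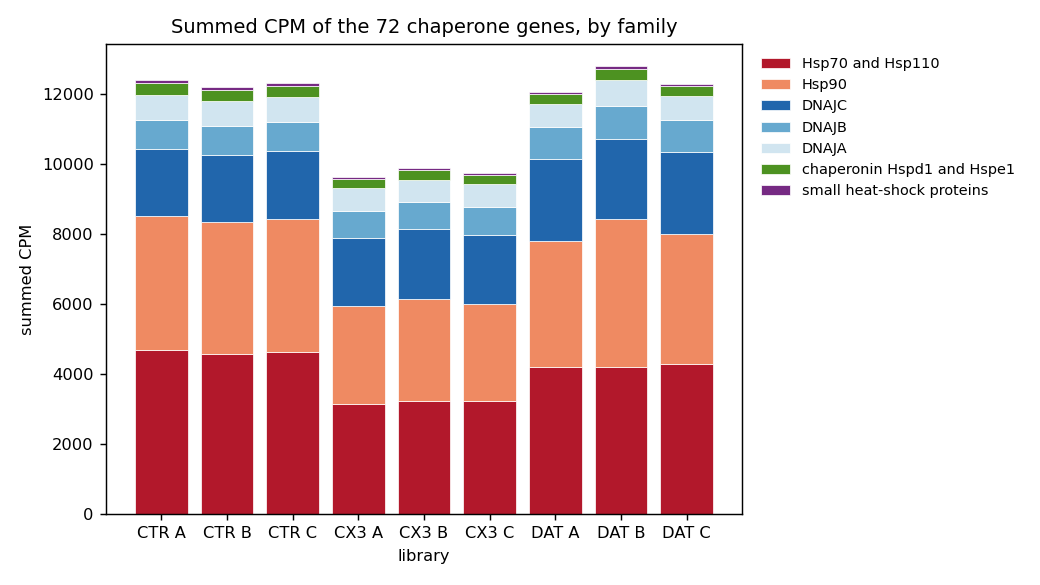
Summed CPM (y axis, from 0) of the 72 chaperone genes in each of the 9 libraries (x axis), with 1 colour per family. The 3 CX3 bars end between 9633 and 9874 CPM, below all bars of CTR and DAT, and the Hsp70 with Hsp110 and the Hsp90 segments are the ones that are visibly shorter.

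The comparison of CX3 with CTR asks how nigral tissue differed when the Synuclein-expressing vector was targeted to CX3CR1 cells. In this comparison the most abundant cytosolic chaperones and the ER chaperone Hspa5 were lower in CX3, and few genes were higher. By edgeR's quasi-likelihood test with Benjamini-Hochberg adjustment over all genes, 22 of the 68 genes tested were lower in CX3 at an adjusted p under 0.05 (32.4%), against 16.5% of all 20892 genes, and 4 were higher (5.88%), against 14.0% of all genes. With a test against a fold of 1.5, 6 genes were lower (8.82%), namely Hspa1b, Hspa1a, Hspb1, Hspa2, Hspa5 and Hsp90ab1, against 1.70% of all genes. No gene was higher by that edgeR test, against 0.828% of all genes, and 0 were at an unadjusted p under 0.05, while with no minimum fold edgeR and DESeq2 each gave 4. The median log2 fold change of the 68 genes was -0.03, against -0.00333 over all genes, so the lower genes were part of the families and not all of them. Without libraries CX3 A and DAT B, the counts were 25 lower and 10 higher. With scaling by library size alone they were 20 lower and 9 higher, and the share of higher calls among all calls over all genes went from 45.9% to 58.9%.

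**Figure D2:**
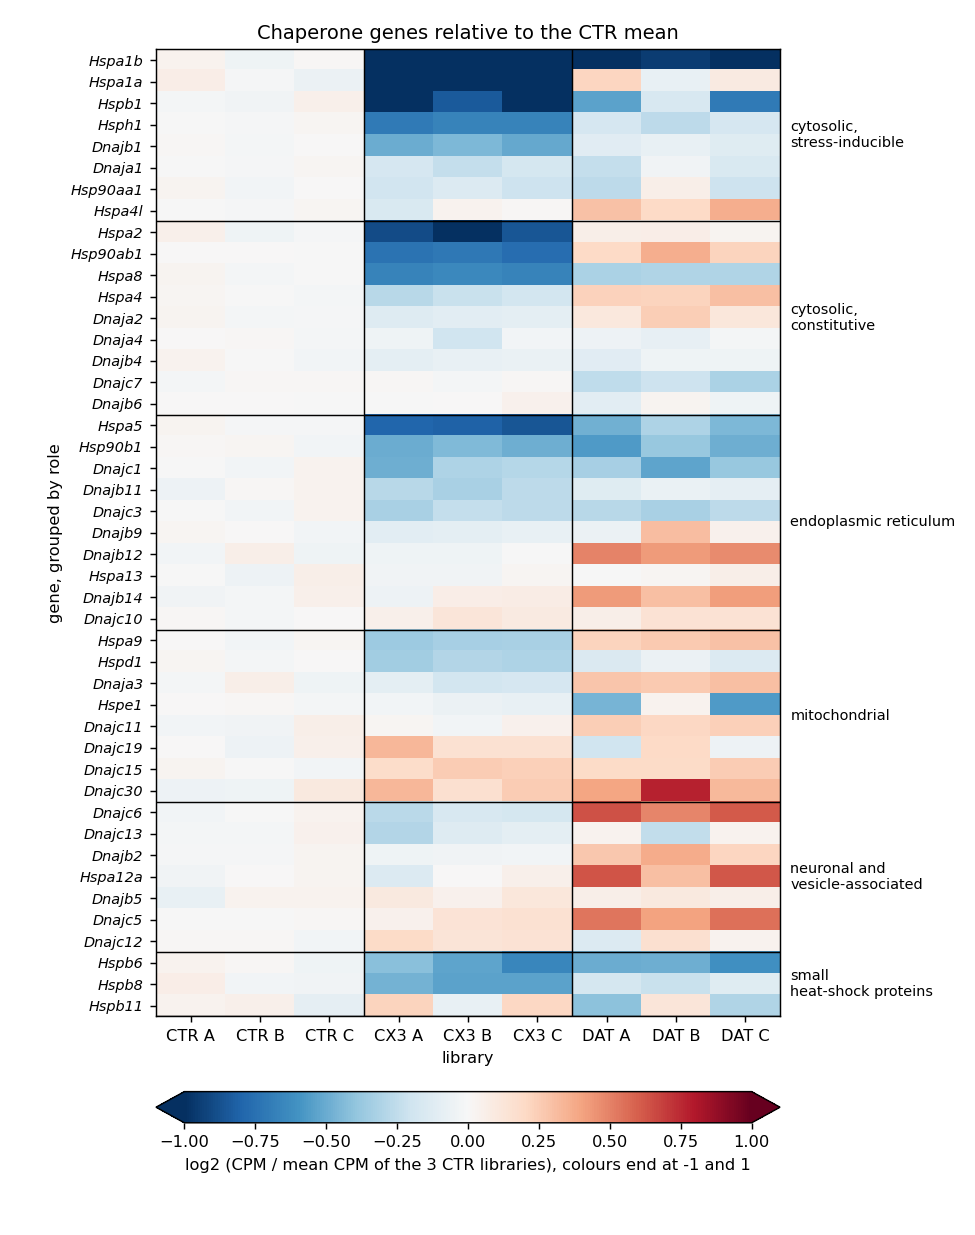
Level of 45 chaperone genes (rows, grouped by role, those with a mean of at least 1 CPM) in the 9 libraries (columns), as the log2 ratio to the mean of the 3 CTR libraries; blue is lower and red is higher, and colours end at -1 and 1. In the 3 CX3 columns the darkest blue rows are Hspa1b, Hspa1a, Hspb1, Hspa2, Hspa5, Hsp90ab1, Hsph1 and Hspa8, while the DAT columns hold red rows such as Dnajc6, Hspa12a and Dnajc5 among the neuronal genes.

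The counts by role in this comparison are read against the shares over all genes, 14.0% higher and 16.5% lower. Of the 8 genes listed as cytosolic and stress-inducible, 7 were lower in CX3 than in CTR, none was higher and 1 did not pass (median log2 fold change -0.58). Where none of a gene list passed in a direction here or in later paragraphs, which was so in 18 cases, DESeq2 gave none either, and in 15 of the 18 none had an unadjusted p under 0.05; the others were Hsf2 among heat shock factors (lower), Atf4 among ER genes (higher) and Dnajc5 and Dnajc12 among neuronal genes (higher), all in CX3 against CTR. Hspa1b (ENSMUSG00000090877.3, chromosome 17 of GRCm38 from 34956436 to 34959238), an inducible Hsp70 gene, had 16.3, 15.4 and 16.0 CPM in CTR, 2.54, 1.94 and 2.08 in CX3, and 7.10, 8.25 and 5.79 in DAT. The 3 groups did not overlap, with every CX3 library lowest. The log2 fold change of CX3 against CTR was -2.85 ± 0.12 (SE), which is 7.23-fold lower (adjusted p = 7.10e-10). Its neighbour Hspa1a (ENSMUSG00000091971.3, chromosome 17 from 34969190 to 34972156), which encodes a nearly identical protein, had 6.60, 6.26 and 6.07 CPM in CTR, 1.66, 1.65 and 1.80 in CX3, and 7.32, 5.99 and 6.71 in DAT. It was 3.70-fold lower in CX3 (log2 fold change -1.89 ± 0.12, adjusted p = 3.97e-08), and CTR and DAT overlapped. Reads that match both genes equally were not counted. Of all windows of 76 bases, 44.4% in Hspa1b and 38.5% in Hspa1a are unique, so the counts of each come from part of its transcript and the split between them is uncertain. With the counts of 1 strand, Hspa1a had 11.0 to 11.7 CPM in CTR in place of 6.31, and it shares 19.0% of its exon bases with a gene on the opposite strand.

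Hspb1, the small heat-shock protein Hsp25, had 20.0, 19.8 and 20.97 CPM in CTR, 10.02, 11.3 and 10.03 in CX3, and 13.9, 18.1 and 12.4 in DAT. The groups did not overlap, with CX3 lowest and CTR highest, and CX3 was 1.94-fold below CTR (log2 fold change -0.95 ± 0.10, adjusted p = 1.07e-05). A pseudogene shares 46.3% of its windows. Hsph1, the Hsp110 that exchanges the nucleotide of Hsp70, had 370, 368 and 375 CPM in CTR and 228, 234 and 233 in CX3 (log2 fold change -0.68 ± 0.04, adjusted p = 2.06e-08). Dnajb1, the inducible Hsp40 partner of Hsp70, had 73.1, 71.5 and 72.4 CPM in CTR and 51.4, 53.1 and 50.8 in CX3 (-0.48 ± 0.04, adjusted p = 1.54e-06). Dnaja1 was lower by less (-0.19 ± 0.05, adjusted p = 0.00899). Hsp90aa1, the inducible cytosolic Hsp90, had 1796, 1734 and 1771 CPM in CTR and 1550, 1609 and 1528 in CX3 (-0.18 ± 0.06, adjusted p = 0.0480). Its call was lost when any 1 CTR or CX3 library was left out, with adjusted p from 0.0758 to 0.141, and with library size alone as the scaling (adjusted p = 0.13). Hspa4l, an Hsp110 relative, was the 1 gene of the list that did not pass (-0.03 ± 0.05). Thus the size of the difference within the list ran from 7.23-fold to values within the spread of the libraries.

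Among the 9 constitutive cytosolic chaperones, 4 were lower in CX3 than in CTR, none was higher and 5 did not pass (median -0.11). Hspa8, the constitutive Hsc70 that also uncoats clathrin vesicles, was the most abundant of the 72 genes, with 2467, 2392 and 2422 CPM in CTR, 1527, 1555 and 1531 in CX3 and 1946, 1974 and 1970 in DAT. The 3 groups did not overlap. CX3 was 1.58-fold below CTR (log2 fold change -0.66 ± 0.03, adjusted p = 1.56e-09). Hspa8 took 19.6% to 19.9% of the summed CPM of all 72 genes in CTR, 15.7% to 15.9% in CX3 and 15.4% to 16.1% in DAT. Hsp90ab1, the constitutive cytosolic Hsp90 (ENSMUSG00000023944.14, chromosome 17 from 45567775 to 45573271), had 1631, 1625 and 1616 CPM in CTR, 974, 988 and 959 in CX3 and 1866, 2093 and 1898 in DAT. Here CX3 lay below CTR and DAT above it (CX3 against CTR -0.74 ± 0.04, adjusted p = 1.50e-08). Hspa2, an Hsp70 known from spermatogenesis, had 37.3, 34.9 and 35.7 CPM in CTR, 19.4, 17.2 and 19.9 in CX3 and 37.4, 37.6 and 36.7 in DAT (CX3 against CTR -0.93 ± 0.06, adjusted p = 5.35e-08). Hspa4, an Hsp110, was lower by 0.23 ± 0.04 on the log2 scale in CX3 (adjusted p = 0.000759). Dnajb6, which keeps aggregation-prone proteins soluble, had 138, 138 and 137 CPM in CTR and 137, 138 and 142 in CX3, and the groups overlapped (0.01 ± 0.04). Its promoter holds the heat shock element shown above.

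**Figure D3:**
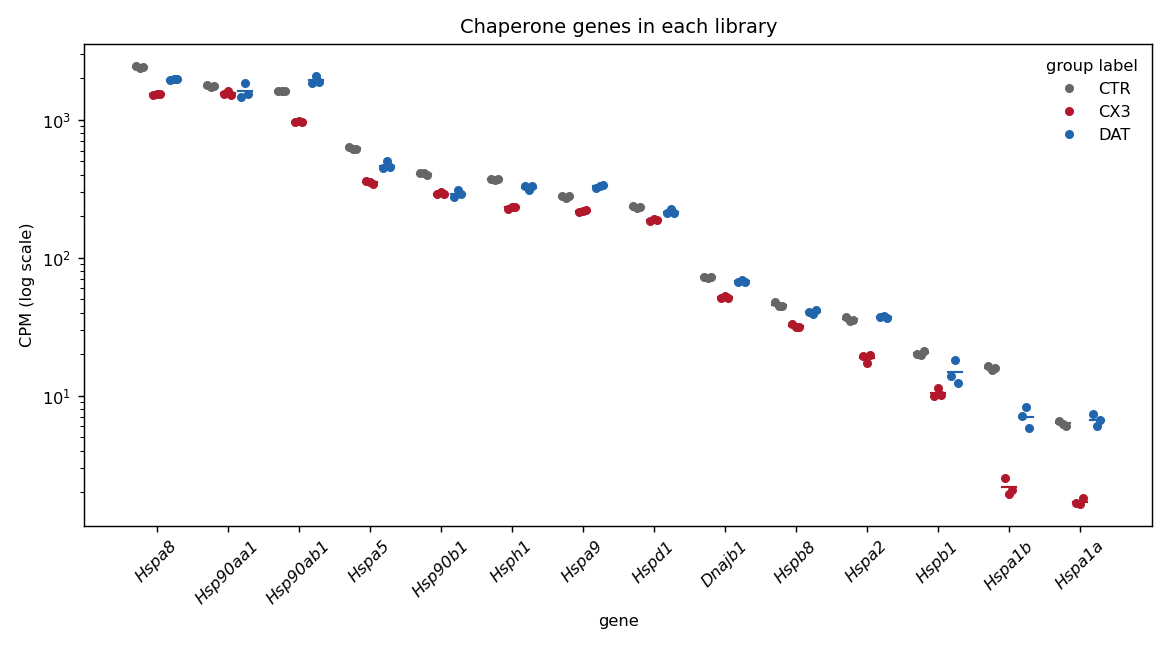
CPM (y axis, log scale) of 14 chaperone genes (x axis) in each library; points are libraries, short lines are group means, and colours are the group labels (grey CTR, red CX3, blue DAT). The CX3 points lie below the CTR points for every gene drawn, by the widest gap for Hspa1b and Hspa1a, and the DAT points of Hsp90ab1 and Hspa9 lie above those of CTR.

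In the ER, 5 of the 10 chaperone genes were lower in CX3 than in CTR, none was higher and 5 did not pass (median -0.18). Hspa5, which encodes the ER Hsp70 BiP (ENSMUSG00000026864.13, chromosome 2 from 34771970 to 34777547), had 632, 615 and 616 CPM in CTR, 359, 356 and 343 in CX3 and 446, 500 and 455 in DAT. The 3 groups did not overlap, and CX3 was 1.76-fold below CTR (log2 fold change -0.82 ± 0.05, adjusted p = 1.31e-08). Hsp90b1, the ER Hsp90 Grp94, had 410, 411 and 398 CPM in CTR, 288, 299 and 289 in CX3 and 274, 313 and 290 in DAT (CX3 against CTR -0.47 ± 0.05, adjusted p = 5.13e-06), so CX3 and DAT overlapped below CTR. Dnajc3, which binds BiP and restrains the kinase PERK, had 149, 146 and 153 CPM in CTR, 119, 126 and 124 in CX3 and 123, 119 and 125 in DAT (CX3 against CTR -0.27 ± 0.04, adjusted p = 0.000265). These 3 are the genes whose promoters hold the ER stress element shown above, and all 3 were lower both in CX3 and in DAT than in CTR. Dnajc1, whose promoter had no match, was lower in both as well (log2 fold change -0.36 in CX3 and -0.40 in DAT). A link between the motif and these levels was not tested. Dnajb11, a soluble partner of BiP, was lower in CX3 by 0.29 ± 0.04 on the log2 scale (adjusted p = 0.00027). Dnajc1, an ER membrane partner of BiP, was lower by 0.36 ± 0.07 (adjusted p = 0.000905), a call that the reverse-strand counts alone did not give (-0.19, adjusted p = 0.058). Hspa13, Dnajb9, Dnajb12, Dnajb14 and Dnajc10 did not pass, with log2 fold changes from -0.09 to 0.09.

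Mitochondrial members were split. Of 8, 3 were lower in CX3 than in CTR, 1 was higher and 4 did not pass (median -0.02). Hspa9, the mitochondrial Hsp70 that pulls proteins through the inner membrane, had 279, 272 and 281 CPM in CTR and 216, 220 and 221 in CX3 (-0.34 ± 0.04, adjusted p = 1.57e-05). Hspd1, the chaperonin Hsp60, had 236, 230 and 233 CPM in CTR and 183, 190 and 188 in CX3 (-0.32 ± 0.04, adjusted p = 5.23e-05), and 69.3% of its windows are unique, with matches in a pseudogene, Hspd1-ps3. Its partner Hspe1 (Hsp10), which shares the promoter stretch with it, had 88.1, 89.0 and 87.1 CPM in CTR and 86.3, 84.7 and 83.5 in CX3 and did not pass (-0.05 ± 0.11, adjusted p = 0.739). Dnaja3, a mitochondrial DNAJ, was lower by 0.15 ± 0.05 (adjusted p = 0.0267). Dnajc15, of the inner membrane, had 96.7, 94.9 and 93.4 CPM in CTR and 108, 113 and 112 in CX3 and was higher (0.22 ± 0.04, adjusted p = 0.00134).

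Of the 7 neuronal and vesicle-associated members, 1 was lower in CX3 and 6 did not pass. Dnajc6, the neuronal auxilin that recruits Hspa8 to clathrin coats and is mutated in juvenile parkinsonism, had 244, 248 and 255 CPM in CTR, 207, 222 and 220 in CX3 and 387, 349 and 381 in DAT. It was lower in CX3 than in CTR by 0.20 ± 0.05 on the log2 scale (adjusted p = 0.00570). Dnajc5, the cysteine string protein of synaptic vesicles, had 303, 302 and 306 CPM in CTR and 314, 334 and 338 in CX3, which did not pass (0.11 ± 0.05, adjusted p = 0.0863). Dnajc12, which binds the aromatic amino acid hydroxylases that include tyrosine hydroxylase, had 29.7, 29.7 and 28.9 CPM in CTR and 33.6, 32.2 and 32.6 in CX3 (0.15 ± 0.06, adjusted p = 0.0866). Dnajc13, of endosomal sorting, had a log2 fold change of -0.17 ± 0.07 (adjusted p = 0.0879). Without DAT B, Dnajc5, Dnajc12 and Dnajc13 passed with adjusted p of 0.00251, 0.0101 and 0.00344. Dnajb2, a neuronal DNAJ that hands clients to the proteasome, did not pass (-0.04 ± 0.05).

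Of 7 small heat-shock proteins tested, 3 were lower in CX3 than in CTR, none was higher and 4 did not pass. Beside Hspb1, Hspb8, which works with Bag3 in the autophagy of misfolded proteins, had 48.0, 44.9 and 44.6 CPM in CTR, 33.0, 31.6 and 31.7 in CX3 and 40.6, 39.2 and 42.1 in DAT (CX3 against CTR -0.51 ± 0.05, adjusted p = 4.58e-06). Hspb6, known as Hsp20, had 10.1, 9.94 and 9.60 CPM in CTR, 7.40, 6.87 and 6.30 in CX3 and 7.02, 7.04 and 6.45 in DAT (-0.53 ± 0.08, adjusted p = 0.000314). The 4 genes higher in CX3 than in CTR were Dnajc15 (above), Dnajc27, Hspa12b and Dnajc14. Dnajc27, a Rab-like GTPase with a J domain, had 149, 151 and 150 CPM in CTR, 196, 202 and 201.1 in CX3 and 253, 231 and 248 in DAT (0.41 ± 0.04, adjusted p = 7.22e-06). Hspa12b, a distant Hsp70 relative known from endothelium, had 8.01, 7.25 and 9.64 CPM in CTR, 10.2, 10.7 and 11.8 in CX3 and 16.1, 16.4 and 15.5 in DAT (0.40 ± 0.10, adjusted p = 0.00708). Summed endothelial markers were 218 to 219 CPM in CTR, 307 to 308 in CX3 and 330 to 342 in DAT, and their part in the level of Hspa12b was not tested. Dnajc14 was higher by 0.19 ± 0.05 (adjusted p = 0.00801), a call that was lost in the counts of either strand alone (adjusted p = 0.0846 and 0.189) and without CTR A (adjusted p = 0.0538).

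The comparison of DAT with CTR sets tissue with the vector targeted to dopaminergic neurons against CTR. Driver line, tamoxifen and vector differ together here, so their parts cannot be told apart. The role lists went different ways. Of the neuronal and vesicle-associated chaperones 4 of 7 were higher in DAT and none lower. The mitochondrial ones had 5 of 8 higher and 2 lower, and the constitutive cytosolic ones 3 of 9 and 2. The stress-inducible ones had 1 of 8 higher and 4 lower, the small heat-shock proteins 1 of 7 and 3, and the ER ones 3 of 10 and 4. The counts by role that follow are read against the shares over all genes, 32.0% higher and 27.9% lower. This comparison shares the CTR libraries with the one above. Of the 68 genes, 24 were higher in DAT (35.3%), against 32.0% of all genes, and 17 were lower (25%), against 27.9% of all genes, shares near those of all genes. By the test against a fold of 1.5, 4 genes were higher (5.88%), Dnajc16, Dnajc27, Hspa12b and Hspb7, against 7.33% of all genes, and Hspa1b alone was lower (1.47%), against 10.7%. The median log2 fold change of the 68 genes was -0.03, against -0.00381 over all genes. With scaling by library size alone the median of all genes moved to -0.151 in this comparison, to 0.0434 for CX3 against CTR and to 0.204 for CX3 against DAT. The share of higher calls among all calls then went from 53.4% to 37.8% for DAT against CTR, and the chaperone counts became 18 higher and 29 lower. Without CX3 A and DAT B they were 24 higher and 27 lower.

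Of the 7 neuronal and vesicle-associated genes, 4 were higher in DAT than in CTR, none was lower and 3 did not pass (median 0.29). Dnajc6 was 49.7% higher (log2 fold change 0.58 ± 0.05, adjusted p = 1.30e-07), with every DAT library above every CTR library. Dnajc5 had 441, 401 and 444 CPM in DAT against 302 to 306 in CTR (0.50 ± 0.05, adjusted p = 5.43e-07). Hspa12a, a neuronal relative of Hspa12b, had 166, 171 and 174 CPM in CTR and 264, 209 and 262 in DAT (0.53 ± 0.08, adjusted p = 3.58e-05), with DAT B lowest of its group. Dnajb2 had 164, 163 and 168 CPM in CTR and 199, 214 and 192 in DAT (0.29 ± 0.05, adjusted p = 8.30e-05). Dnajb5, Dnajc12 and Dnajc13 did not pass, with log2 fold changes from -0.05 to 0.07. General neuronal markers were higher in the same libraries by a median of 0.608 on the log2 scale, and their part in these values was not tested.

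In mitochondria 5 of 8 genes were higher in DAT than in CTR, 2 were lower and 1 did not pass (median 0.22). Hspa9 had 324, 333 and 339 CPM in DAT (0.26 ± 0.04, adjusted p = 4.46e-05), above CTR, whereas it was below CTR in CX3. Dnajc30, of the inner membrane, had 6.01, 6.04 and 6.67 CPM in CTR and 8.20, 10.7 and 7.81 in DAT (0.50 ± 0.12, adjusted p = 0.00195), and it shares 26.3% of its exon bases with a gene on the opposite strand. Hspd1 was lower by 0.11 ± 0.04 (adjusted p = 0.0283), a call lost without CTR A (adjusted p = 0.0548) or CX3 B (adjusted p = 0.0515) and with all genes of at least 1 count kept (adjusted p = 0.136). Hspe1 had 63.9, 90.1 and 59.5 CPM in DAT, so that DAT B alone reached the CTR level and the groups overlapped (-0.31 ± 0.11, adjusted p = 0.0216). Without DAT A or DAT C its call was lost (adjusted p = 0.0709 and 0.064).

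Among stress-inducible genes, 4 of 8 were lower in DAT than in CTR, 1 was higher and 3 did not pass (median -0.13). Hspa1b was 2.26-fold lower (-1.18 ± 0.11, adjusted p = 4.74e-07), Hspb1 1.38-fold lower (-0.46 ± 0.10, adjusted p = 0.00155) and Hsph1 1.15-fold lower (-0.20 ± 0.04, adjusted p = 0.000636). Hspa1a, at 0.09 ± 0.10, did not pass. Hspa4l was higher (0.29 ± 0.05, adjusted p = 0.000417). Dnajb1 (-0.10 ± 0.04, adjusted p = 0.0538) and Hsp90aa1 (-0.13 ± 0.06, adjusted p = 0.0962) lay just outside the threshold, and both passed without DAT B, with adjusted p of 0.018 and 1.54e-07. In DAT B, Hsp90aa1 had 1842 CPM against 1474 and 1534 CPM in DAT A and DAT C. Of the constitutive cytosolic genes, 3 of 9 were higher, 2 lower and 4 did not pass. Hsp90ab1 was higher by 0.27 ± 0.04 (adjusted p = 7.75e-05) and Hspa4 by 0.25 ± 0.04 (adjusted p = 0.000105), whereas Hspa8 was lower by 0.31 ± 0.03 (adjusted p = 8.94e-07) and Dnajc7, a partner of both Hsp70 and Hsp90, by 0.26 ± 0.04 (adjusted p = 0.000121).

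In the ER, 3 of 10 genes were higher in DAT than in CTR, 4 were lower and 3 did not pass (median -0.03). Hsp90b1 was lower by 0.48 ± 0.05 (adjusted p = 1.02e-06), Hspa5 by 0.41 ± 0.05 (adjusted p = 2.64e-06), Dnajc1 by 0.40 ± 0.07 (adjusted p = 0.000134) and Dnajc3 by 0.29 ± 0.04 (adjusted p = 5.15e-05). Dnajb12 and Dnajb14, both DNAJ proteins of the ER membrane, were higher by 0.47 ± 0.05 and 0.38 ± 0.05 (adjusted p = 1.71e-06 and 1.72e-05), and Dnajc10, an ER disulfide reductase, by 0.12 ± 0.04 (adjusted p = 0.0305). With library size alone as the scaling the sign of Dnajc10 turned, without a call. Small heat-shock proteins included 1 higher and 3 lower of 7. Hspb6 was lower by 0.53 ± 0.09 (adjusted p = 0.000129) and Hspb8 by 0.17 ± 0.05 (adjusted p = 0.00996). Hspb7, known from heart and muscle, had 12, 13 and 13 counts in CTR, 16, 14 and 12 in CX3 and 21, 54 and 61 in DAT, or 0.576, 2.72 and 2.68 CPM in DAT, so its higher call (2.23 ± 0.49, adjusted p = 0.00136) came from DAT B and DAT C.

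Outside the role lists, Dnajc16 had 42.9, 40.3 and 41.9 CPM in CTR, 38.6, 41.7 and 42.0 in CX3 and 79.5, 72.4 and 77.6 in DAT. Every DAT library was above all 6 others, by 1.84-fold against CTR (log2 fold change 0.88 ± 0.05, adjusted p = 6.48e-09). Dnajc27 and Hspa12b were higher in DAT by 0.70 ± 0.04 and 0.95 ± 0.10 (adjusted p = 6.75e-09 and 1.21e-06). Dnajb3 (0.67 ± 0.20, adjusted p = 0.0102) had 1.00 to 1.48 CPM in CTR and 1.76 to 2.41 in DAT, and its call was lost in the counts of either strand alone (adjusted p = 0.171 and 0.0628) and without CTR C (adjusted p = 0.0518). Dnajb7 had 10, 12 and 5 counts in CTR, 13, 15 and 10 in CX3, and 0, 0 and 5 in DAT. Its fitted fold rests on these few counts, so no fold is given, and its lower call was lost by DESeq2 (adjusted p = 0.0652), with a replicate block (0.0689) and without CTR A, CTR B, CX3 B, DAT A or DAT B (adjusted p from 0.0516 to 0.19).

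**Figure D4:**
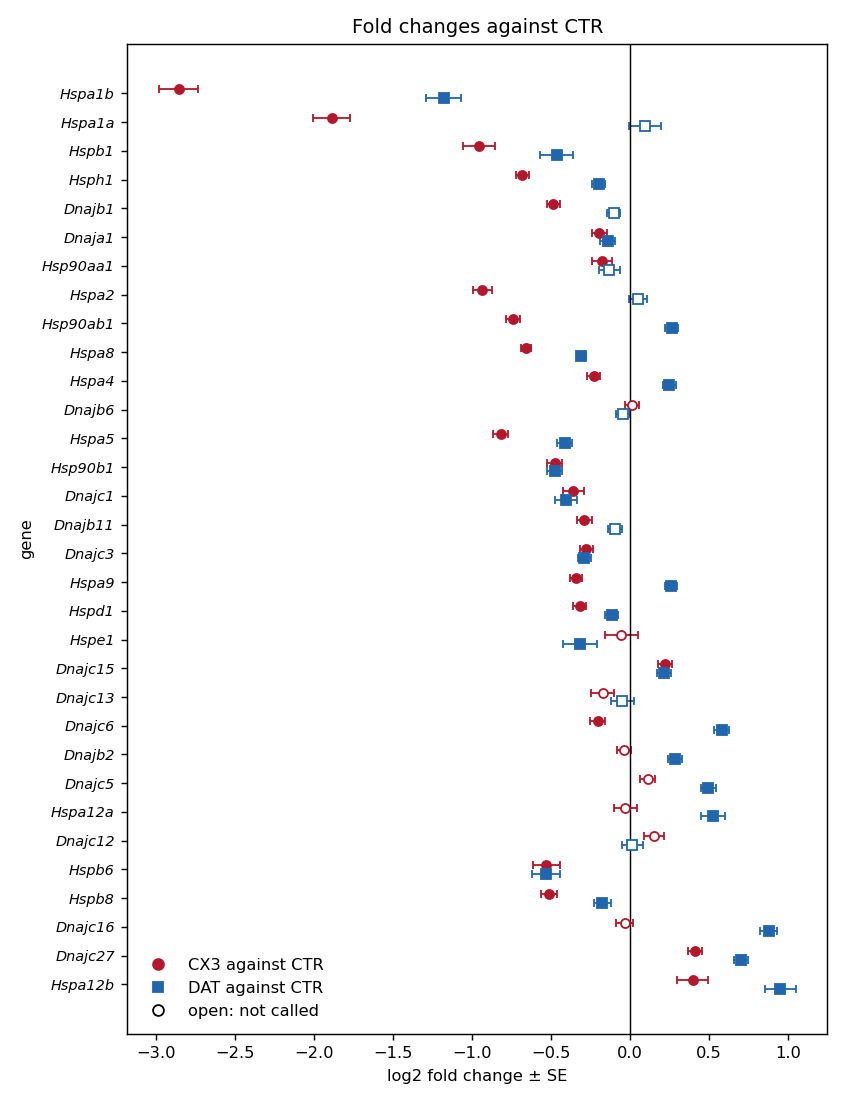
Log2 fold change with its standard error (x axis) of 32 chaperone genes (y axis) for CX3 against CTR (red circles) and DAT against CTR (blue squares), which share the 3 CTR libraries; open symbols did not pass an adjusted p of 0.05. The red circles of Hspa1b, Hspa1a, Hspb1 and Hspa2 lie farthest left, Hsp90ab1, Hspa4, Hspa9 and Dnajc6 have red circles left of 0 and blue squares right of it, and Dnajc16, Dnajc27 and Hspa12b have the blue squares farthest right.

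The comparison of CX3 with DAT tests the difference between both groups that received the Synuclein-expressing vector, under different drivers. Of these groups, tamoxifen is described for CX3 alone. Of 68 genes, 31 were lower in CX3 than in DAT (45.6%), against 31.3% of all genes, and 4 were higher (5.88%), against 27.6% of all genes. By the test against a fold of 1.5, 7 were lower (10.3%), against 8.17% of all genes, and none was higher by that edgeR test, against 9.93% of all genes, with 1 (Dnajb7) at an unadjusted p under 0.05 and with 4 higher by DESeq2 with no minimum fold. The median log2 fold change was -0.19, against 0.0103 over all genes. This split depended on the scaling. With library size alone, 23 were lower and 27 higher, and the share of higher calls among all calls over all genes went from 46.8% to 66.7%. Without CX3 A and DAT B, 31 were lower and 12 higher.

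By role, 6 of 8 stress-inducible, 5 of 9 constitutive cytosolic, 5 of 10 ER, 4 of 8 mitochondrial, 4 of 7 neuronal and 3 of 7 small heat-shock genes were lower in CX3 than in DAT. These counts come from short lists and are read against 31.3% lower over all genes. The widest differences with sufficient counts were those of Hspa1a (-1.98 ± 0.12, adjusted p = 5.08e-09), Hspa1b (-1.68 ± 0.14, adjusted p = 1.25e-07), Hsp90ab1 (-1.004 ± 0.04, adjusted p = 1.47e-10), Hspa2 (-0.98 ± 0.06, adjusted p = 6.54e-09) and Dnajc16 (-0.91 ± 0.05, adjusted p = 4.36e-09). Dnajc6 (-0.78 ± 0.05, adjusted p = 6.38e-09) and Hspa9 (-0.60 ± 0.04, adjusted p = 1.01e-08) followed. Hspb7 had a log2 fold change of -2.29 ± 0.48 (adjusted p = 0.000951) on the few counts given above. For Hspa5 (-0.40 ± 0.05), Hspa8 (-0.35 ± 0.03), Hsph1 (-0.48 ± 0.04) and Dnajb1 (-0.38 ± 0.04) this comparison also tests whether the differences from CTR were unequal, and each passed, with adjusted p from 1.37e-07 to 3.66e-06. For Hsp90b1 (0.00 ± 0.05, adjusted p = 0.986), Dnajc3 (0.01 ± 0.04, adjusted p = 0.824) and Hspb6 (0.00 ± 0.09, adjusted p = 0.987), which were lower than CTR in both groups, no difference between CX3 and DAT passed. Hsp90b1 did pass as higher in CX3 with library size alone (0.20, adjusted p = 0.00242), where the median of all genes was 0.204. It also passed without CX3 A and DAT B (0.08, adjusted p = 0.00991). Higher in CX3 than in DAT were Dnajc7 (0.26 ± 0.04, adjusted p = 0.000112), Dnajb7 (counts above), Dnajc19, of the mitochondrial import motor (0.24 ± 0.09, adjusted p = 0.0279), and Hspb11, also known as Ift25 of intraflagellar transport (0.33 ± 0.13, adjusted p = 0.0408). The libraries of Dnajc19 and of Hspb11 overlapped between the groups, and both calls were lost without CX3 A (adjusted p = 0.0814 and 0.0909) or DAT A (adjusted p = 0.124 and 0.175). Hspb11 also did not pass without CX3 C or DAT C (adjusted p = 0.0942 and 0.0855), by DESeq2 (adjusted p = 0.0619), with a replicate block (adjusted p = 0.0624) or with the libraries of these 2 groups only (adjusted p = 0.059). The call of Dnajb7 was lost without CX3 B (adjusted p = 0.0515) or DAT A (adjusted p = 0.0951). Hspe1, just outside the threshold (0.26 ± 0.11, adjusted p = 0.0509), passed under several alternatives, among them a replicate block (adjusted p = 0.0336) and leaving out DAT B (adjusted p = 2.15e-09).

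Across the 3 comparisons, 5 genes were lower in CX3 and higher in DAT than in CTR, namely Hsp90ab1, Hspa4, Hspa9, Dnaja3 and Dnajc6. The share of all genes with each joint pattern of this paragraph was not computed, and the comparisons share libraries. The counts therefore describe these genes and set nothing apart from other genes. A further 12 were lower than CTR in both groups, 7 of them lower in CX3 than in DAT as well (Hspa1b, Hspa5, Hspa8, Hspb1, Hspb8, Hspd1 and Hsph1). The call of Hspd1 in CX3 against DAT was lost with library size alone (-0.01, adjusted p = 0.827). Hspa1a, Hspa2, Dnajb1 and Dnajb11 were lower in CX3 than in both other groups, without passing for DAT against CTR. The 18 genes that passed in no comparison included Dnajb6, Dnajc12, Dnajc13, Hspa13, Hspa14 and Dnajb4. The 4 genes that were not tested, Dnajb8, Dnajc5b, Dnajc5g and Hspb9, had at most 0.302 CPM in any library.

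Other genes of the chaperone network were counted from lists, for which the shares over all genes are those given above, in CX3 against CTR 14.0% higher and 16.5% lower and in DAT against CTR 32.0% and 27.9%. Of 18 ER folding and unfolded protein response genes, 14 were lower in CX3 than in CTR, none was higher and 4 did not pass (median -0.48). The widest differences were those of the disulfide isomerase gene Pdia4 (-0.997), the lectin chaperone gene Calr (-0.82), Herpud1 of ER-associated degradation (-0.72) and the ER Hsp110 gene Hyou1 (-0.69). In DAT against CTR 5 of the 18 were higher and 10 lower, and in CX3 against DAT 2 were higher and 11 lower (27.6% and 31.3% of all genes). Hyou1 was higher in DAT than in CTR by 0.53, Pdia4 lower by 0.71. Of 24 co-chaperones and nucleotide exchange factors, 11 were lower and 3 higher in CX3 than in CTR (median -0.15), with Fkbp5 (-0.60), Bag3 (-0.46), Stip1 (-0.44) and Fkbp4 (-0.41) widest, and 15 were higher and 5 lower in DAT than in CTR (median 0.17; all genes 32.0% and 27.9%), with Bag6 (0.84) and Bag3 (0.71) widest among the higher. In CX3 against DAT 17 of them were lower and 3 higher. Bag3, the partner of Hspb8, thus lay below CTR in CX3 and above it in DAT.

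Of 8 subunits of the cytosolic chaperonin TRiC, 5 were lower in CX3 than in CTR (Cct3 at -0.45 the widest), and 3 were lower in DAT than in CTR and 3 lower in CX3 than in DAT, with none higher in any comparison. The shares of 3 in 8 stand against 27.9% and 31.3% of all genes. Of the 5 heat shock factor genes, none passed in CX3 against CTR by edgeR or DESeq2, and 1 (Hsf2) had an unadjusted p under 0.05. Hsf1, which drives the induced heat-shock genes in the cytosol, had 31.0, 31.9 and 31.1 CPM in CTR, 31.2, 29.7 and 30.9 in CX3 and 31.8, 32.7 and 33.4 in DAT and passed in no comparison. Hsf4 was higher in DAT than in CTR (0.64), and Hsf2 (-0.20) and Hsf5 (-1.01) were lower. Of 7 mitochondrial chaperones and proteases outside the families, 1 was lower in CX3 than in CTR (Trap1, the mitochondrial Hsp90, at -0.26) and 6 did not pass, 1 was higher and 2 lower in DAT than in CTR, and 2 were higher and 2 lower in CX3 than in DAT. Cryab, the crystallin that works beside Hspb1, was lower in CX3 and in DAT than in CTR (-0.77 and -1.16), and the collagen chaperone gene Serpinh1 was lower in CX3 than in CTR (-0.62).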

How the data were processed

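RNA of dissected substantia nigra was sequenced in 9 libraries, 3 per group, and samples were grouped by the vector and driver in their labels. The authors deposited raw counts of reads per gene for each library, without normalization, in 3 columns that hold reads on either strand, the forward and the reverse strand. Per the labels and the methods, 1 microgram of RNA was prepared with a stranded mRNA kit and read in 76 bases, and Trimmomatic, STAR, featureCounts and mm10 are named. Their versions are not given in the sources used here. The deposited files have the layout of the gene counts of STAR. Each strand held close to the same total (49.8% to 49.9% reverse), so counts of both strands together were used, and strand does not tell a gene from its antisense partner. Reads set aside as ambiguous between genes made up 4.34% to 5.67%, so genes that overlap another can be under-counted. Dnajc30, for example, had a mean of 6.24 CPM in CTR, but 17.9 and 18.6 with forward and reverse counts. Reads with several matches (3.36% to 4.54%) were not counted, and reads outside genes made up 4.15% to 7.73%. These and the ambiguous reads stayed out of library sizes.

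Counts were scaled by TMM, filtered by filterByExpr and tested with edgeR 4.0.16 (glmQLFit and glmQLFTest, group as the only term, all 9 libraries) in R 4.3.3, with Benjamini-Hochberg adjustment over 20892 genes and calls at an adjusted p under 0.05, and by glmTreat against a fold of 1.5. The tests are two-sided. Steps were tested on simulated data. Alternatives were DESeq2 1.42.0, other scalings, filters and strands, 2 groups only, a replicate block and leaving out libraries. The fit without both CX3 A and DAT B was chosen after seeing the data. The genes and lists were chosen with earlier results of these data known. In each comparison the 8 called genes with the largest change in each direction are named, with a fixed set of the main chaperones. The 14 pseudogenes whose symbols match are left out. The letters A to C do not pair libraries. Correlations of the deviations of same-letter libraries were -0.16 to 0.0398.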

Additional observations from a re-analysis of the deposited data

How the results depend on the processing

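Directions were checked for the fixed set of main chaperones and the 8 called genes with the largest change in each direction. Among these, no fold change of a called gene turned its direction with a call under any alternative. Other called genes were not checked for this. For CX3 against CTR, the 4 higher and 22 lower calls became 0 and 6 against a fold of 1.5. The higher calls became 9 with library size alone, 7 with all genes of at least 1 count, 10 with the libraries of the 2 groups only and 10 without both CX3 A and DAT B, and leaving out 1 library gave 3 to 10 higher (10 without DAT B) and 19 to 24 lower. For DAT against CTR, the 24 higher and 17 lower calls became 4 and 1 against a fold of 1.5, and the lower ones 29 with library size alone and 27 without CX3 A and DAT B. Leaving out 1 library gave 19 to 24 higher and 13 to 22 lower. For CX3 against DAT, the 4 higher and 31 lower calls became 0 and 7 against a fold of 1.5, and the higher ones 8 with RLE scaling, 27 with library size alone, 12 with at least 10 counts in every library, 10 and 9 with reverse and forward strand and 12 without CX3 A and DAT B. Leaving out 1 library gave 1 to 12 higher (7 without CTR B, 1 without DAT A, 12 without DAT B) and 30 to 33 lower. All 22 genes lower in CX3 than in CTR kept their calls without CX3 A and DAT B. The cause of these shifts was not tested. Library letters share no stated origin, and with a replicate block the counts were 4 and 22, 24 and 15, and 4 and 31, but of the 4 higher in CX3 than in DAT 3 were shared, with Hspb11 lost and Hspe1 gained, and Dnajb7 was lost among the lower calls of DAT against CTR. Over all genes, CX3 against CTR gave 2923 higher and 3444 lower calls, and 4209 and 4379 without DAT B. Depth limits genes near the floor of 3 counts, such as Dnajb7, which had 0 to 15 counts per library.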
